A study of Dugesia japonica with 12 samples.

Results

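The genes described here encode homeobox proteins and other sequence-specific transcription factors of the freshwater planarian Dugesia japonica. They were chosen by text: the annotation hit or the Swiss-Prot hit of an assembled gene had to name a DNA-binding family, such as homeobox, forkhead, Sox, GATA, Ets, nuclear receptor or T-box, and at least 3 of the 12 libraries had to hold 1 TPM or more. TPM is a transcript's share of a library, corrected for length and scaled to a common total. Of 116 genes matching the text, 112 passed the limit on level, out of 30535 genes listed and 27329 tested. By their names 97 of the 112 are transcription factors, 38 of them homeobox proteins. Another 13 are partner or unrelated proteins whose names contain a search word, such as nuclear receptor coactivators. The last 2 are ribosomal protein S15a transcripts, caught because the species of their best hit, Barentsia elongata, contains the letters gata. Counts below are for the 97 factors unless stated.

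Whole worms of the clonal strain Dj-NH, propagated asexually, made up all 4 groups. The control worms were untreated, and the other groups were sampled on day 1, 3 or 5 of exposure to 64 mg per L of glyphosate, a herbicide. Each group had 3 libraries of polyadenylated RNA. Neither the age of the worms, the number per library, the day on which controls were taken nor the use of separate cultures is stated, so the spread behind the p-values may be technical. The question addressed here is whether transcripts of regulatory genes differed between unexposed and exposed worms and between exposure times.

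Sequence-specific transcription factors bind short DNA motifs and set which genes a cell transcribes. In planarians, factors of these families mark lineages: stem cells called neoblasts supply all tissues, and their descendants switch on factors for gut, epidermis, nerve cells or muscle, while Hox genes and relatives of sine oculis mark positions along the body. Others, among them FoxO, ATF6 and NFAT5, are known from stress responses in other animals. Because whole worms were sequenced, fewer cells of a type and less RNA per cell cannot be told apart.

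The names were checked against protein domains listed in the deposited table. Of the 97 factors, 89 had a Pfam domain entry and 87 of these named a DNA-binding domain, while 8 had no entry; 0 of the 13 partner or other proteins had such a domain. The best hit was a flatworm protein for 58 factors, a Dugesia protein for 10 and a Schmidtea protein for 28. Gene identifiers are those of the assembly, and no genome coordinates go with them. In 4 assembly clusters, 8 of the 112 genes share a cluster with another of them, so reads may have been divided between their transcripts. Just inside the limit on level stood TRINITY_DN28854_c1_g2, 1 of 2 transcripts named for the Hox protein DjAbd-Bb, and TRINITY_DN18334_c0_g1, a TBX2/3c transcript, each with 1.05 TPM in the third highest of its libraries. Just outside stood TRINITY_DN11217_c1_g1, a subunit B of NF-Y, with 0.96 TPM there, and TRINITY_DN20056_c0_g1, an Ets factor named ese3, with 0.87 TPM.

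Most factors were transcribed at low levels. Over the 12 libraries the median factor had a mean of 2.57 TPM (range 0.641 to 22.8), against 2.18 TPM over all tested genes, whose median transcript length was 488 bases against 1487 for the factors. In all 12 libraries 70 of the 97 factors reached 1 TPM; 31 had a mean under 2 TPM and 11 a mean of at least 10 TPM. By class, the medians of mean level ran from 0.721 TPM for the single Prospero-type transcript to 10.5 TPM for the pair of basic helix-loop-helix factors. The NF-Y subunits (median 9.32 TPM, 3 genes) and nuclear receptors (median 6.94 TPM, 7 genes) also stood high, while the LIM (1.26 TPM, 4 genes), Hox (2.01 TPM, 6 genes) and TALE classes (2.05 TPM, 8 genes) stood low. The mean levels were highest for SOXP-3, the Ets factor Eip74EF-like, FoxO1-B-like, TCF15 and PBX, each at 16.6 TPM or more.

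**Figure D1:**
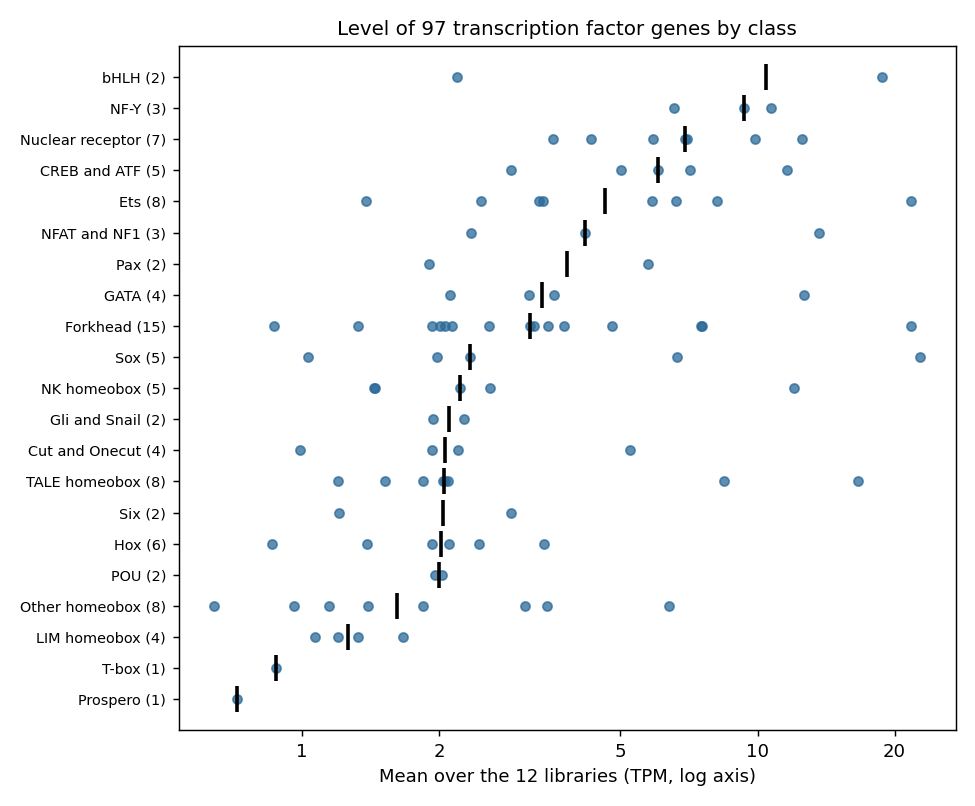
Mean TPM over the 12 libraries (x axis, log scale) for each of the 97 factors (points), grouped by class with the number of genes in parentheses; vertical bars are class medians. Most points lie below 5 TPM, and the highest, SOXP-3 among the Sox genes, lies at 22.8 TPM.

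Libraries differed in the level of the whole gene set. The median over all tested genes was 3.01 TPM in control replicate 1 and 2.99 TPM in day 3 replicate 2, against 1.81 to 2.75 TPM in the other libraries. For the factors, day 3 replicate 2 stood apart: their median there was 4.55 TPM, against 1.93 to 3.34 TPM elsewhere, and 64 of the 97 (66%) had their highest value in that library, against 26.3% of all tested genes. After median-ratio scaling, which sets libraries to a common typical level, 37 factors (38.1%) still peaked there, against 13.2% of all tested genes. The factors' summed level ran from 354.9 TPM in day 3 replicate 3 to 680.2 TPM in day 3 replicate 2, so the day 3 group held both ends of the range. What sets day 3 replicate 2 apart was not tested.

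**Figure D2:**
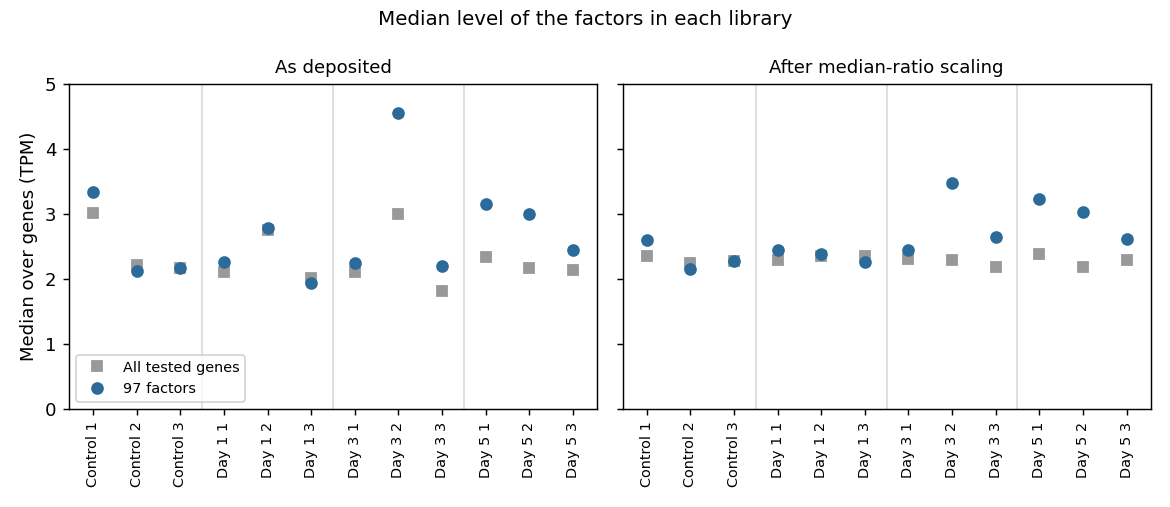
Median TPM per library (y axis) over the 97 factors (circles) and over the 27329 tested genes (squares), with libraries along the x axis; left, values as deposited, right, after median-ratio scaling. The factors in day 3 replicate 2 stand at 4.55 TPM on the left, above every other library.

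In no comparison did any of the 97 factors pass the threshold, a limma adjusted p under 0.05 over all tested genes. Over all tested genes this threshold called 0.132% at day 1 against control, 1.62% at day 3 and 2.91% at day 5, and 1.84% in the F test over the 4 groups. A count of 0 of 97 is near these background shares. At an unadjusted p under 0.05 there were 4 factors at day 1 (8.83% of all tested genes), 3 at day 3 (14.5%) and 9 at day 5 (16.5%). The single gene of the 112 that was called was a ribosomal S15a transcript, which is no transcription factor.

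The precision limits what could be seen. The half-width of the 95% interval of a factor's log2 fold change had a median of 0.61 and ran from 0.44 to 1.16. The whole interval lay within 1 log2 unit of 0 for 84 of 97 factors at day 1, 78 at day 3 and 72 at day 5. For these genes a change of 2-fold or more on the log2(TPM + 1) scale lay outside the interval at that time, a scale that understates the change of low genes. The lowest adjusted p among factors was 0.375 for FoxJ1-like 3 at day 1, and 0.127 at day 3 and 0.0811 at day 5 for TCF15.

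Taken over all 97, estimates lay on both sides of 0. The median log2 fold change against control was -0.07 at day 1 (32 factors above 0), 0.11 at day 3 (65 above 0) and 0.04 at day 5 (57 above 0), while over all tested genes it was -0.08, -0.06 and -0.09. These signs rested on single libraries, and the median of all tested genes moved too. Without day 3 replicate 2 the day 3 median was -0.17 with 29 factors above 0, against -0.20 over all tested genes. Without control replicate 1 the day 1 median was 0.05 with 64 above 0, against 0.02. The day 5 median was then 0.16 with 75 above 0, against 0.02. Without control replicate 2 the day 3 median was -0.01, against -0.10, and the day 5 median -0.08, against -0.14. Median-ratio scaling moved the day 1 median to 0.02 and the day 5 median to 0.15, against 0.02 and 0.004. In each of these settings the factor median at days 3 and 5 lay above that of all tested genes. Whether the factors differ from other genes as a set was not tested. Because the signs moved, no direction is given for the factors as a set.

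**Figure D3:**
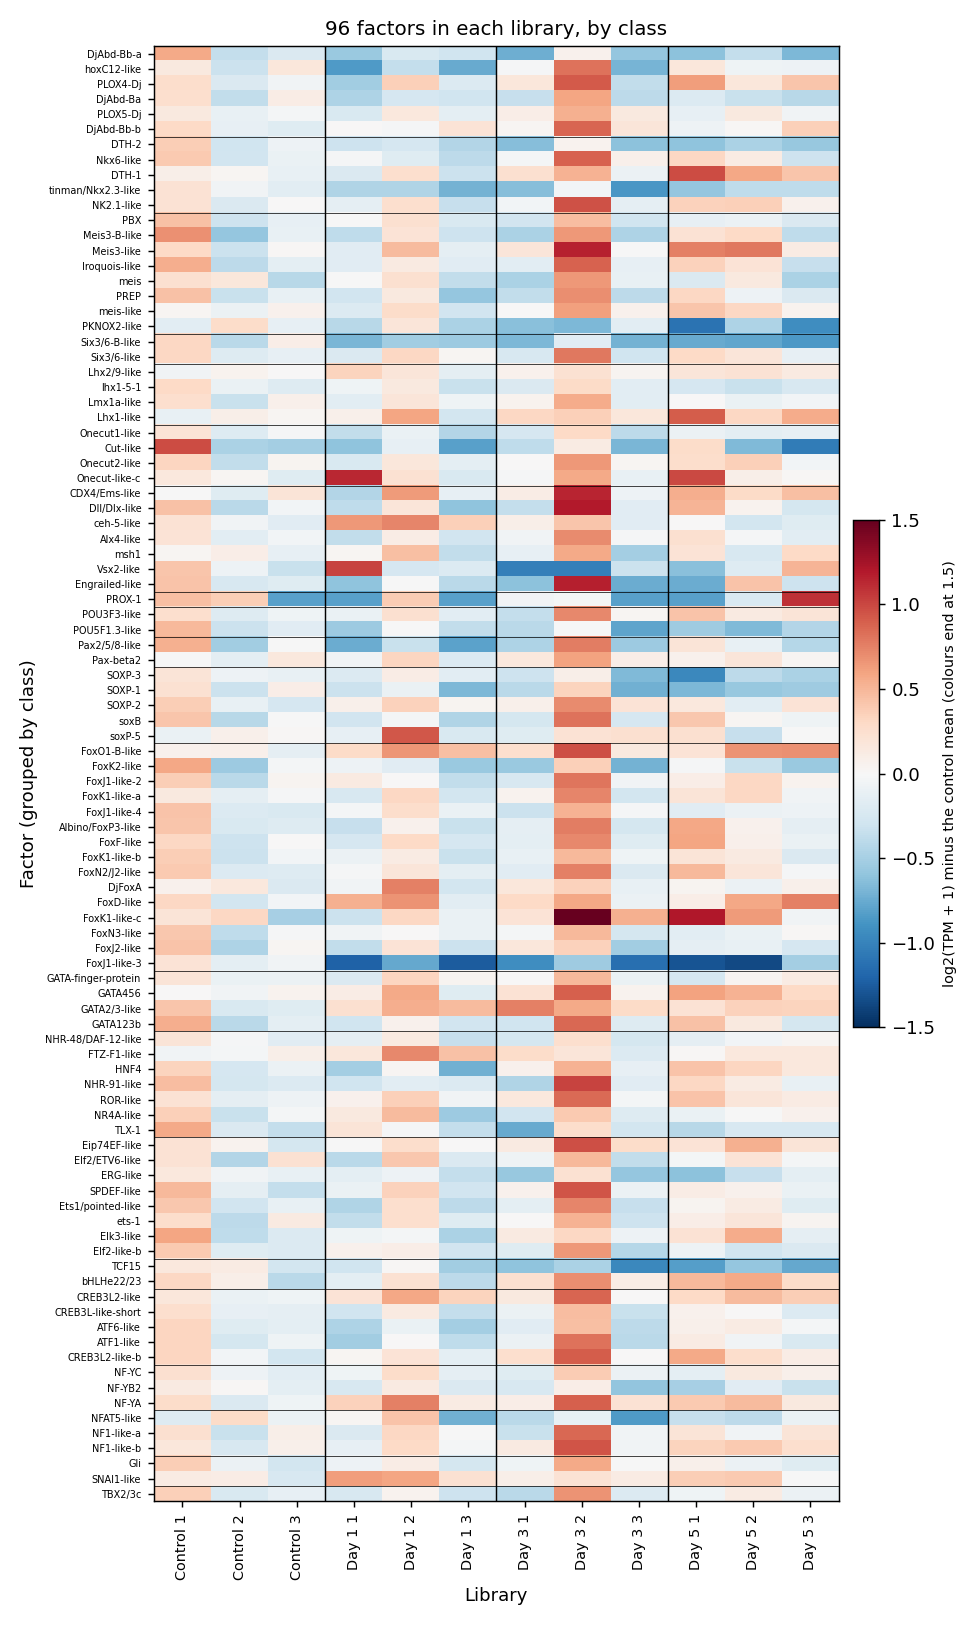
Log2(TPM + 1) of each of 96 factors (rows, grouped by class and ordered by mean level within it) minus its control mean, in each of the 12 libraries (columns); colours end at 1.5. The column of day 3 replicate 2 is red for most rows, FoxO1-B-like is above its control mean in every exposed library, FoxJ1-like-3 is below its own in every exposed library, and TCF15 is below its own in all day 3 and day 5 libraries.

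Groups that did not overlap were counted as a second, descriptive measure. At day 5 all 3 exposed libraries lay above all 3 control libraries for 8 factors (7.7% of all tested genes did so) and below them for 12 (15.6% did so). At day 1 there were 5 above (background 5.65%) and 4 below (7.71%), and at day 3 there were 3 above (5.66%) and 2 below (10.5%). In percent of the 97 factors these counts are at or below the background, except 8 above at day 5, which is close to it. At all 3 times FoxO1-B-like lay above control and FoxJ1-like 3 below it. The 3 comparisons share the same control libraries, and the share of all tested genes that did so was not counted.

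**Figure D4:**
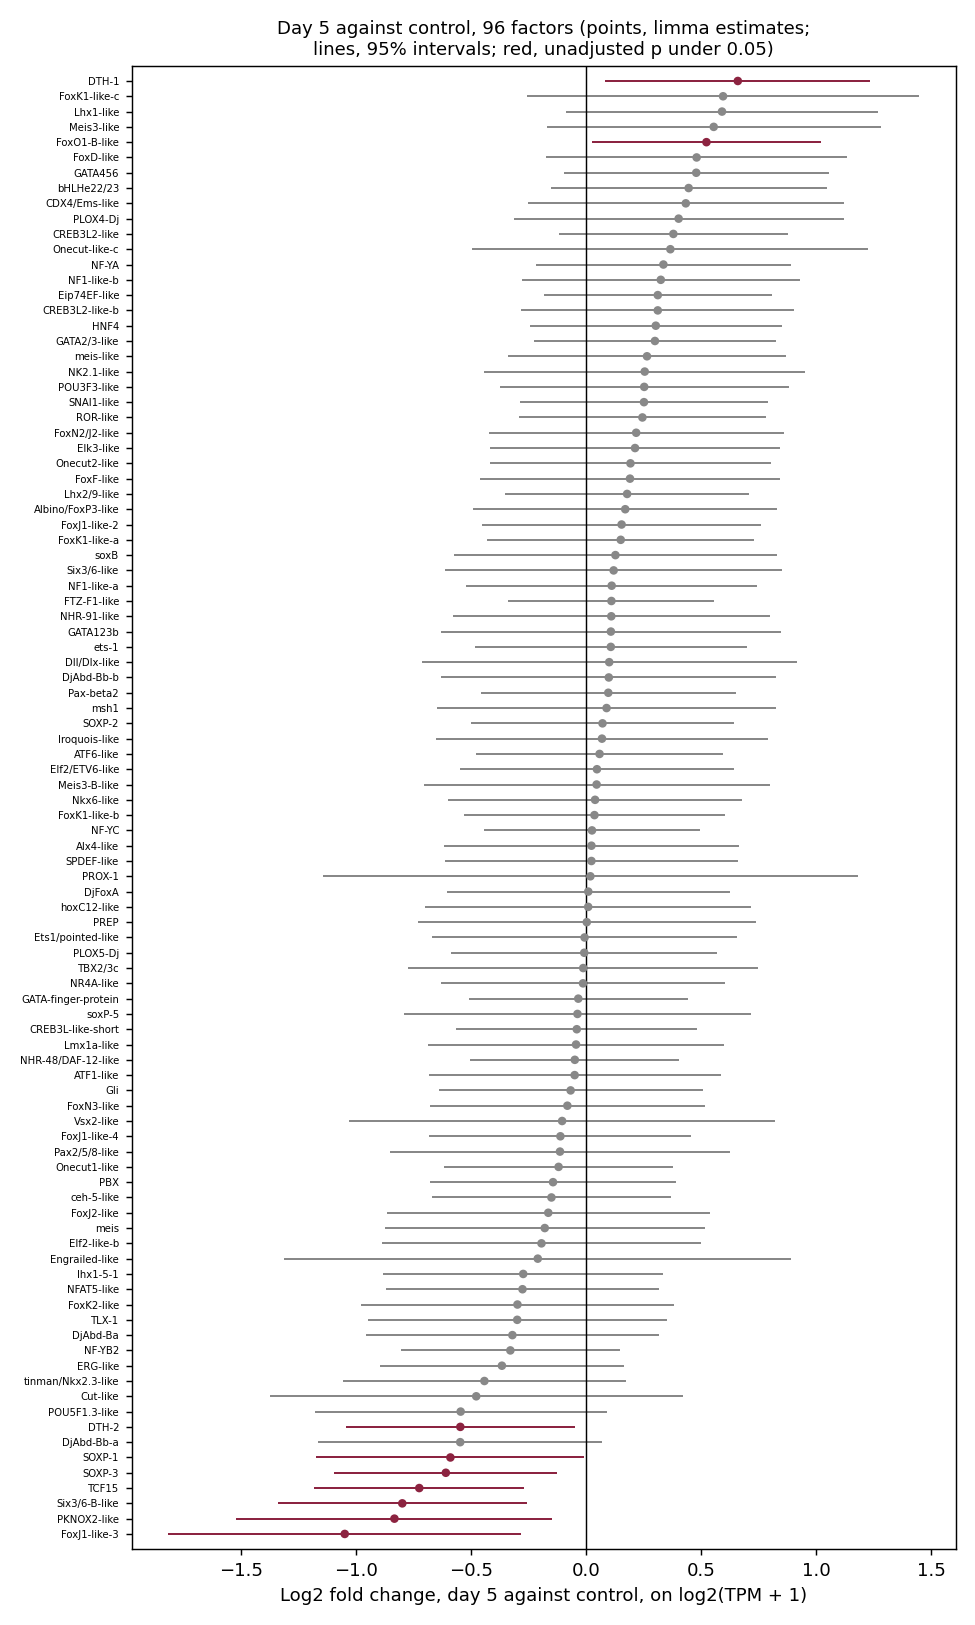
Log2 fold change of each of 96 factors at day 5 against control on the log2(TPM + 1) scale (x axis; points are limma estimates, lines 95% intervals), ordered by size; red marks an unadjusted p under 0.05. There are 9 red points, of which DTH-1 and FoxO1-B-like are above 0, and 0 of those plotted passed the adjusted threshold.

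The factors tied to stress included a FoxO transcript. TRINITY_DN38585_c2_g1, whose Swiss-Prot hit is zebrafish Foxo1b, belongs to the forkhead factors that insulin signalling restrains and that act in stress resistance and survival. It was at 17.0, 17.2 and 14.8 TPM in control, 20.04, 26.4 and 22.6 TPM at day 1, 19.5, 32.9 and 18.2 TPM at day 3 and 18.9, 26.6 and 26.9 TPM at day 5. Every exposed library was above every control library. The difference did not pass the threshold at day 1 (log2 fold change 0.47, SE 0.23, adjusted p = 0.591), day 3 (log2 fold change 0.46, SE 0.23, adjusted p = 0.395) or day 5 (log2 fold change 0.52, SE 0.23, adjusted p = 0.277; limma).

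TRINITY_DN36329_c2_g1, similar to CREB3L2, a membrane-bound factor released under endoplasmic reticulum stress in mammals, was at 10.5, 8.57 and 8.77 TPM in control and 11.6, 13.2 and 12.2 TPM at day 5. It is 1 of the 8 factors without a Pfam entry, and its best hit is a protein of Priapulus caudatus. At day 1 it was at 10.8, 14.3 and 11.9 TPM and at day 3 at 10.4, 17.7 and 9.25 TPM. Its day 1 and day 5 libraries lay above the control range, and day 3 overlapped it (day 5 log2 fold change 0.38, SE 0.23, adjusted p = 0.455, limma). The ATF6-like transcript (TRINITY_DN35573_c1_g8), named for a sensor of unfolded proteins, was at 6.42 ± 1.52 TPM in control, 4.76 ± 0.935 TPM at day 1 and 6.63 ± 0.408 TPM at day 5 (SD, n = 3 libraries, as for all means below), with log2 fold changes of -0.36 and 0.06 that did not pass. The NFAT5-like transcript (TRINITY_DN33833_c1_g1), whose mammalian namesake responds to osmotic stress, ranged from 8.11 to 21.0 TPM over the 12 libraries, with a day 5 log2 fold change of -0.28 and an interval of -0.87 to 0.31. In this class of 5 CREB and ATF factors the day 5 estimates ran from -0.05 to 0.38.

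TCF15 had the lowest adjusted p of the factors at days 3 and 5. TRINITY_DN23478_c0_g1 encodes a basic helix-loop-helix protein with a Schmidtea TCF15 as best hit; in vertebrates TCF15 acts in the mesoderm that forms somites. It was at 27.5, 26.9 and 20.1 TPM in control and 19.8, 24.9 and 16.8 TPM at day 1, and then at 15.8, 17.4 and 12.1 TPM at day 3 and 13.4, 16.1 and 14.1 TPM at day 5. All day 3 and day 5 libraries lay below all control libraries, and the day 1 group overlapped control. The day 3 log2 fold change was -0.69 (SE 0.21, adjusted p = 0.127) and the day 5 one -0.73 (SE 0.21, 95% interval -1.18 to -0.27, adjusted p = 0.0811, limma). The other factor of its class, bHLHe22/23 (TRINITY_DN41379_c0_g1), was at 1.81 ± 0.678 TPM in control and 2.76 ± 0.377 TPM at day 5, with overlapping groups.

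Of the 5 Sox factors, SOXP-3 and SOXP-1 stood below control at day 5. SOXP-3 (TRINITY_DN39131_c2_g1) is known in Schmidtea from neoblasts of the epidermal lineage, and SOXP-1 (TRINITY_DN38018_c1_g1) from neoblasts there. SOXP-3 was at 30.5, 25.0 and 24.5 TPM in control and 13.1, 19.9 and 18.9 TPM at day 5, with 22.97, 28.6 and 23.7 TPM at day 1 and 21.2, 28.4 and 16.3 TPM at day 3. SOXP-1 was at 9.70, 6.31 and 8.85 TPM in control and 4.75, 5.17 and 5.36 TPM at day 5. Neither group of day 5 libraries overlapped control, and neither difference passed the threshold (SOXP-3, log2 fold change -0.61, SE 0.23, adjusted p = 0.175; SOXP-1, log2 fold change -0.59, SE 0.27, adjusted p = 0.292; limma). The other 3, SOXP-2 (TRINITY_DN32099_c0_g1), soxB (TRINITY_DN39585_c1_g8) and soxP-5 (TRINITY_DN34385_c3_g4), had means of 2.33, 1.98 and 1.03 TPM and day 5 log2 fold changes of 0.07, 0.13 and -0.04.

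Neoblast markers were set beside the SOXP values. The summed level of 25 neoblast markers, among them PCNA, MCM and ribonucleotide reductase transcripts, was 630.0 to 852 TPM in control, 493 to 628 at day 1, 454 to 698 at day 3 and 411 to 456 at day 5. It lay below the control range at day 1 and day 5 and overlapped it at day 3, while SOXP-3 overlapped control at day 1 (log2 fold change -0.08). Of these markers 5 fell and 0 rose at day 5, where 2.23% of all tested genes were called lower and 0.681% higher. At day 3, 4 fell and 0 rose (1.19% and 0.428% of all tested genes), and 0 were called at day 1 (limma). Those called were transcripts of PCNA, MCM4 and ribonucleotide reductase, and no transcript named for piwi or vasa was called. The list medians were -0.38, -0.30 and -0.62 at days 1, 3 and 5, against -0.08, -0.06 and -0.09 over all tested genes, with 22, 20 and 21 of the 25 estimates below 0. Of the 25, 0 were at 0 TPM in all libraries. The part of neoblast number in the SOXP values was not tested.

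The 38 homeobox factors divide into 6 Hox, 8 TALE, 5 NK, 4 LIM, 4 Cut or Onecut, 2 Six3/6-type, 1 Prospero-type and 8 other genes. Among the NK genes, DTH-2 (TRINITY_DN33620_c0_g9) and DTH-1 (TRINITY_DN37116_c6_g7) are named for homeobox genes of another planarian, Girardia tigrina, and lay on opposite sides of control. DTH-2 was at 19.6, 11.9 and 14.1 TPM in control, 11.8, 12.3 and 10.7 TPM at day 1, 9.21, 15.4 and 9.37 TPM at day 3 and 9.47, 10.4 and 9.70 TPM at day 5. DTH-1, described after its values were seen, was at 1.89, 1.77 and 1.52 TPM in control and 4.36, 3.07 and 2.64 TPM at day 5. Its day 1 values of 1.34, 2.24 and 1.17 TPM and day 3 values of 2.21, 2.92 and 1.57 TPM overlapped control. The day 5 groups of both genes were clear of control without passing the threshold (DTH-2, log2 fold change -0.55, SE 0.23, adjusted p = 0.247; DTH-1, log2 fold change 0.66, SE 0.27, adjusted p = 0.226; limma). The tinman/Nkx2.3-like gene (TRINITY_DN29088_c0_g1), whose fly namesake specifies heart and gut muscle, was at 2.12 ± 0.423 TPM in control, 1.14 ± 0.208 TPM at day 1 and 1.29 ± 0.179 TPM at day 5, and the Nkx6-like gene (TRINITY_DN35606_c1_g1) had a day 5 log2 fold change of 0.04.

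Of the pair of Six3/6-type genes, which mark the anterior brain region in many animals, TRINITY_DN36737_c3_g8 was closest to the threshold. This transcript, similar to a sine oculis homeobox 3/6 B of a chiton, was at 5.44, 2.93 and 4.60 TPM in control, 2.25, 2.62 and 2.58 TPM at day 1, 2.28, 3.62 and 2.20 TPM at day 3 and 2.08, 2.05 and 1.86 TPM at day 5. The day 1 and day 5 libraries lay below all controls, as did those of day 3 save replicate 2, which overlapped them. Its log2 fold changes were -0.58, -0.52 and -0.80 at the 3 times, with a day 5 interval of -1.34 to -0.26 and an adjusted p of 0.104 (limma). The second Six3/6-like transcript (TRINITY_DN39145_c0_g1), of lower level with a mean of 1.21 TPM, had a day 5 estimate of 0.12; whether the pair differ in response was not tested.

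Hox genes, which mark positions along the body, had means between 0.860 and 3.40 TPM. The highest, DjAbd-Bb (TRINITY_DN30111_c0_g1), of the Abd-B type that marks the posterior, was at 6.95, 3.18 and 3.62 TPM in control and 2.49, 3.19 and 2.36 TPM at day 5. Control replicate 1 was the high value, and the groups overlapped narrowly (log2 fold change -0.55, SE 0.29, adjusted p = 0.368, limma). The second DjAbd-Bb transcript (TRINITY_DN28854_c1_g2) had a day 5 estimate of 0.10, and DjAbd-Ba (TRINITY_DN20031_c0_g1) one of -0.32. The hoxC12-like transcript (TRINITY_DN39176_c3_g2) was at 3.04, 1.92 and 3.09 TPM in control and 1.02, 1.85 and 1.15 TPM at day 1, clear of control, and at 3.09, 2.48 and 2.45 TPM at day 5, within its range. PLOX4-Dj (TRINITY_DN25374_c0_g1) and PLOX5-Dj (TRINITY_DN36561_c1_g5), planarian Hox genes, had day 5 estimates of 0.40 and -0.01.

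The TALE homeobox proteins PBX, PREP and Meis bind DNA together with Hox proteins and with each other. PBX (TRINITY_DN39554_c10_g1) was the most abundant homeobox factor, at 23.2, 13.4 and 15.3 TPM in control and 15.3, 15.8 and 14.4 TPM at day 5, with an estimate of -0.14 and an interval of -0.67 to 0.39. PREP (TRINITY_DN34001_c1_g5), meis (TRINITY_DN32799_c2_g1) and a meis-like gene (TRINITY_DN31368_c0_g1) had means of 1.84, 2.04 and 1.52 TPM and day 5 estimates of 0.00, -0.18 and 0.26. The groups of these 4 genes overlapped at day 5. A short PKNOX2-like transcript (TRINITY_DN16568_c0_g1), chosen after its values were seen, was at 1.49, 2.37 and 1.55 TPM in control and 0.290, 1.02 and 0.450 TPM at day 5 (log2 fold change -0.83, SE 0.32, adjusted p = 0.195, limma).

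The 4 LIM homeobox genes, a class known from neuron identity, stood at 1.07 to 1.66 TPM. For lhx1-5-1 (TRINITY_DN30370_c0_g1), known in Schmidtea from serotonergic neurons, day 5 was at 1.06, 0.960 and 1.09 TPM against 2.03, 1.29 and 1.15 TPM in control, groups that did not overlap (log2 fold change -0.27, adjusted p = 0.702, limma). The Lhx1-like transcript (TRINITY_DN37018_c3_g1) was at 2.19, 1.1 and 1.49 TPM at day 5 against 0.570, 0.800 and 0.730 TPM in control, above it in all 3 (log2 fold change 0.59, adjusted p = 0.380, limma). The Lhx2/9-like gene (TRINITY_DN36667_c5_g4) had an estimate of 0.18. Of other homeobox genes, the CDX4/Ems-like transcript (TRINITY_DN38001_c0_g3) was at 5.06, 4.37 and 5.95 TPM in control and 7.92, 6.46 and 7.36 TPM at day 5, clear of control (estimate 0.43, adjusted p = 0.558, limma). The msh1 gene (TRINITY_DN33395_c1_g3) had a day 5 estimate of 0.09, and a short PROX-1 transcript (TRINITY_DN34715_c1_g2), related to fly prospero, ranged from 0 to 2.77 TPM without order between groups.

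Among factors of the gut, HNF4 and GATA456 are known in planarians from the intestine and its progenitors. HNF4 (TRINITY_DN34428_c2_g2) was at 8.66, 5.46 and 6.24 TPM in control, 4.38, 6.85 and 3.64 TPM at day 1, 7.04, 10.04 and 6.03 TPM at day 3 and 9.32, 8.58 and 7.57 TPM at day 5. Day 5 lay above day 1 in every library and overlapped control; the log2 fold change was 0.30 against control (adjusted p = 0.620) and 0.70 against day 1 (adjusted p = 0.305, limma). GATA456 (TRINITY_DN39543_c3_g10) was at 2.75, 2.60 and 2.86 TPM in control, 3.02, 4.54 and 2.29 TPM at day 1, 3.35, 5.95 and 2.87 TPM at day 3 and 4.69, 4.37 and 3.61 TPM at day 5. Its controls lay within a narrow range, and days 3 and 5 lay above it in all libraries (day 5 log2 fold change 0.48, SE 0.27, adjusted p = 0.406, limma). A list of 55 genes taken as gut markers was made from the words cathepsin, legumain, lysosomal and apolipoprotein. Whether these genes are particular to the gut was not tested. Their summed level was 2750.0 to 4270.0 TPM in control and 4300.0 to 5180.0 TPM at day 5. At day 5, 5 rose and 1 fell (0.681% and 2.23% of all tested genes), and the list median was 0.32, against -0.09 over all tested genes. Of the 5 that rose, 2 had mean levels of 0.393 and 1.16 TPM in control and a protein of the water flea Daphnia magna as best hit, and the best hit of the 1 that fell was an apolipoprotein of Bos taurus. The part of gut RNA in the values of these factors was not tested. The other GATA genes were a GATA zinc finger protein (TRINITY_DN30889_c0_g1, mean 12.7 TPM), a GATA2/3-like gene (TRINITY_DN27663_c0_g2) and GATA123b (TRINITY_DN34026_c1_g5), with day 5 estimates of -0.03, 0.30 and 0.11. At day 3 the GATA2/3-like gene was at 4.55, 3.87 and 2.98 TPM against 3.35, 1.80 and 1.88 TPM in control, which overlap (log2 fold change 0.54, SE 0.25, adjusted p = 0.327, limma).

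**Figure D5:**
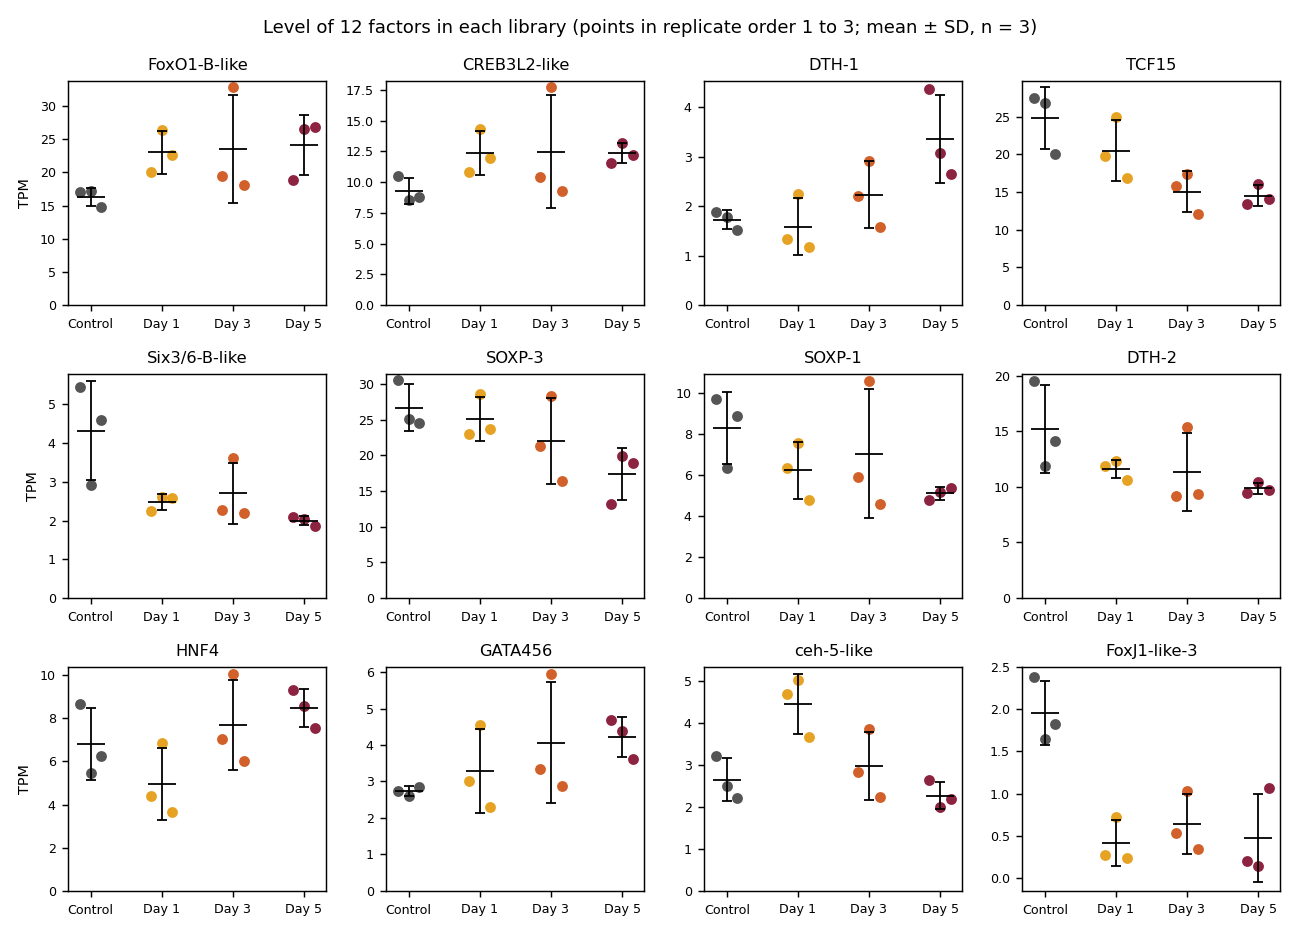
TPM (y axis) of 12 factors in each library of control and days 1, 3 and 5 (x axis); points are libraries in replicate order, bars mean ± SD with n = 3. FoxO1-B-like lies above its control range in all exposed libraries, TCF15 below it at days 3 and 5, and day 3 replicate 2, the middle point of its group, is the highest day 3 value in all 12 panels.

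The 7 nuclear receptors, factors switched by small lipid-soluble ligands, included 5 with a mean of at least 5 TPM. The FTZ-F1-like receptor (TRINITY_DN34195_c3_g1), an orphan receptor known in flies from segmentation and moulting, was at 8.26, 8.42 and 9.21 TPM in control and 9.83, 14.8 and 12.1 TPM at day 1, above all controls. At day 3 it was at 10.7, 9.90 and 7.38 TPM and at day 5 at 8.73, 9.71 and 9.73 TPM, which overlap control (day 1 log2 fold change 0.44, SE 0.21, adjusted p = 0.564, limma). The ROR-like receptor (TRINITY_DN36927_c3_g6) had a mean of 5.90 TPM and a day 3 estimate of 0.33, and TLX-1 (TRINITY_DN38686_c4_g4), related to fly tailless, had 3.56 TPM and a day 5 estimate of -0.30. Over the class, day 5 estimates ran from -0.30 to 0.30, and every interval lay within 1 log2 unit of 0.

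Of the 8 Ets factors, the Eip74EF-like transcript (TRINITY_DN39548_c5_g10), named for a fly factor induced by the moulting hormone ecdysone, was the most abundant. It was at 21.3, 18.9 and 14.96 TPM in control, 20.1, 36.5 and 22.2 TPM at day 3 and 21.1, 26.9 and 21.0 TPM at day 5 (day 3 log2 fold change 0.46, SE 0.23, adjusted p = 0.391, limma). Day 3 replicate 2 was its highest library, and the groups overlapped. The ERG-like factor (TRINITY_DN36419_c3_g2) was at 4.70, 5.84 and 6.89 TPM at day 5, below its controls of 8.75, 7.39 and 7.06 TPM, with an estimate of -0.37 (adjusted p = 0.509, limma). The gene ets-1 (TRINITY_DN37333_c1_g1), known in Schmidtea from pigment cell progenitors, had a mean of 3.32 TPM and a day 5 estimate of 0.11; all 8 intervals at day 5 lay within 1 log2 unit of 0.

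Of the 15 forkhead genes, FoxJ1-like 3 had the largest estimates in size at days 1, 3 and 5. FoxJ1-like 3 (TRINITY_DN24474_c0_g2), a transcript of 306 bases similar to a Schmidtea FoxJ1-like protein, was at 2.38, 1.65 and 1.83 TPM in control, 0.270, 0.730 and 0.240 TPM at day 1, 0.540, 1.03 and 0.340 TPM at day 3 and 0.200, 0.150 and 1.07 TPM at day 5. Every exposed library was below every control library, at levels near the limit of 1 TPM, and no time passed the threshold (day 1 log2 fold change -1.07, SE 0.36, adjusted p = 0.375; day 5 log2 fold change -1.05, SE 0.36, adjusted p = 0.137; limma). FoxJ1-like 4 (TRINITY_DN37815_c1_g3), named for the factor that switches on motile cilia genes, had day 1, 3 and 5 estimates of 0.04, 0.06 and -0.11, and FoxJ1-like 2 (TRINITY_DN33353_c1_g1) had -0.07, 0.17 and 0.15. None of 46 markers of ciliated cells was called at any of the 3 times against control (limma), and their list medians were -0.25, -0.17 and -0.22. DjFoxA (TRINITY_DN33455_c5_g8), known in planarians from the pharynx, had a mean of 2.13 TPM and a day 5 estimate of 0.01. The highest day 3 and day 5 estimates of the class were those of a FoxK1-like transcript (TRINITY_DN37151_c3_g4, chosen after its values were seen), 0.78 and 0.59, with 1.5, 1.70 and 0.540 TPM in control, 1.51, 5.66 and 2.17 TPM at day 3 and 4.03, 2.39 and 1.1 TPM at day 5. Its groups overlapped at both times. A FoxD-like transcript (TRINITY_DN35173_c0_g1) had a day 5 estimate of 0.48, and the Albino gene (TRINITY_DN38651_c0_g2), needed for body pigment in Schmidtea, one of 0.17.

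NF-Y is a complex of 3 subunits, A, B and C, that binds CCAAT boxes in promoters. NF-YC (TRINITY_DN39537_c8_g5) had a mean of 10.7 TPM and log2 fold changes within 0.04 of 0 at all 3 times. NF-YB2 (TRINITY_DN39166_c2_g1) was at 7.14, 9.24 and 8.13 TPM at day 5, below its controls of 11.6, 10.6 and 9.40 TPM (estimate -0.33, adjusted p = 0.508, limma). NF-YA (TRINITY_DN31855_c1_g1) was at 6.35, 4.21 and 4.79 TPM in control and 6.92, 7.38 and 5.71 TPM at day 5, which overlap (estimate 0.34). The subunits thus had estimates of either sign, and whether they differ from each other was not tested.

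Of the remaining classes, the POU5F1.3-like gene (TRINITY_DN28061_c0_g2) was at 4.02, 1.87 and 2.17 TPM in control and 1.48, 1.25 and 1.63 TPM at day 5, groups that did not overlap (log2 fold change -0.55, SE 0.30, adjusted p = 0.386, limma), and the POU3F3-like gene (TRINITY_DN28877_c0_g1) had an estimate of 0.25. The Pax2/5/8-like gene (TRINITY_DN34752_c0_g2) was at 6.68 ± 2.78 TPM in control and 3.80 ± 0.879 TPM at day 1 (estimate -0.63), and Pax-beta2 (TRINITY_DN32744_c4_g3) had a day 5 estimate of 0.10. Gli (TRINITY_DN35065_c1_g1), the effector of hedgehog signalling, had an estimate of -0.07 with an interval of -0.64 to 0.50. The SNAI1-like gene (TRINITY_DN19715_c0_g1), whose mammalian namesake drives epithelial cells to become motile, was at 2.84, 2.77 and 1.93 TPM at day 1, above its controls of 1.72, 1.70 and 1.11 TPM (estimate 0.48, adjusted p = 0.608, limma). The single T-box gene, TBX2/3c, had an estimate of -0.01 at day 5 and stayed at 0.430 to 2.01 TPM.

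Among the 15 genes that are not factors, NCOA5 (TRINITY_DN32693_c0_g1), a nuclear receptor coactivator, had a mean of 20.7 TPM and a day 5 estimate of -0.17. The IKK-epsilon-like kinase (TRINITY_DN36739_c2_g1) had one of 0.06, and the NFRKB-like transcript TRINITY_DN34622_c6_g3 one of -0.31. The ribosomal S15a transcript TRINITY_DN16802_c0_g1 was at 9.71, 5.09 and 6.15 TPM in control, 5.31, 2.87 and 2.82 TPM at day 1, 0.180, 4.44 and 1.22 TPM at day 3 and 0.650, 0.290 and 1.01 TPM at day 5. It fell at day 5 (log2 fold change -2.26, SE 0.44, adjusted p = 0.0113; limma), and the call was lost without control replicate 1 (adjusted p = 0.0667). The other S15a transcript (TRINITY_DN682_c0_g1) was at 5.94 ± 1.39 TPM in control and 6.06 ± 1.5 TPM at day 5.

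The number of factors called at day 5 changed with how libraries were scaled. TPM shares a fixed total among all genes, so a change in a few abundant transcripts enters every value. Under median-ratio scaling and under quantile normalization the same 5 factors passed the threshold at day 5, while as deposited 0 did. The calls over all tested genes also moved, from 186 higher and 609 lower as deposited to 550 and 679 with median-ratio scaling and 679 and 746 with quantile normalization. In both directions together, 1229 of the 27329 tested genes were called with median-ratio scaling and 1425 with quantile normalization. A count of 5 of 97 factors is near these background shares. With median-ratio scaling the higher 3 were FoxO1-B-like (log2 fold change 0.65, adjusted p = 0.0463), CREB3L2-like (log2 fold change 0.51, adjusted p = 0.0462) and DTH-1 (log2 fold change 0.75, adjusted p = 0.0398), and the lower 2 were TCF15 (log2 fold change -0.59, adjusted p = 0.0393) and Six3/6-B-like (log2 fold change -0.69, adjusted p = 0.0433; limma). Scaled FoxO1-B-like values were 13.3, 17.4 and 15.5 TPM in control and 19.3, 26.8 and 28.8 TPM at day 5, and scaled TCF15 values 21.4, 27.3 and 21.0 and 13.7, 16.3 and 15.04 TPM. These groups do not overlap, as in the deposited values. Rescaling without the 2 most abundant transcripts called 0 factors at day 5 and moved the median of all tested genes from -0.09 to 0.03; its lowest adjusted p was 0.105 for DTH-1 (limma). Among the alternatives run, FoxO1-B-like, CREB3L2-like, DTH-1 and Six3/6-B-like were called at day 5 with median-ratio scaling and quantile normalization and with no other. TCF15 was also called on the deposited scaling with a filter of 5 TPM (adjusted p = 0.0409) and with a replicate block (adjusted p = 0.0475, limma). The sign of each of the 5 was the same as deposited and under both scalings.

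Between exposure times, 0 factors passed the threshold. Over all tested genes it called 0.179% for day 3 against day 1, 0.49% for day 5 against day 1 and 0.0% for day 5 against day 3 (limma), where 3.08% had an unadjusted p under 0.05. At that unadjusted threshold there were 2 factors for day 3 against day 1 (8.66% of all tested genes), 5 for day 5 against day 1 (10.2%) and 0 for day 5 against day 3. For day 3 against day 1 the groups did not overlap for 0 factors that were higher at day 3 (background 3.79%) and 2 that were lower (8.18%), and for day 5 against day 3 for 0 higher (3.25%) and 2 lower (3.14%). From day 1 to day 5 the groups did not overlap for 6 factors that were higher at day 5 (background 6.11%) and 6 that were lower (11.1%). The higher 6 were HNF4, NHR-91-like, ATF6-like, hoxC12-like, DTH-1 and bHLHe22/23, and the lower 6 were SOXP-3, TCF15, DTH-2, FTZ-F1-like, ceh-5-like and Six3/6-B-like. The ceh-5-like homeobox transcript (TRINITY_DN36045_c0_g1), chosen after its values were seen, was at 4.70, 5.03 and 3.66 TPM at day 1, above its controls of 3.22, 2.5 and 2.22 TPM, and at 2.64, 1.99 and 2.19 TPM at day 5. It had the lowest adjusted p of the factors for day 5 against day 1 (log2 fold change -0.74, adjusted p = 0.242, limma). Under quantile normalization HNF4 (adjusted p = 0.0438) and ceh-5-like (adjusted p = 0.0465) were called in this comparison (limma). That setting called 187 of the 27329 tested genes there.

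Genes next to the factors in the transcription pathway were counted by lists on the same text. Over all tested genes, 0.681% were called higher and 2.23% lower at day 5, and 0.428% and 1.19% at day 3. Of 60 genes named for the general machinery of RNA polymerases, 6 fell and 0 rose at day 5, 3 fell and 1 rose at day 3 and 0 were called at day 1 (limma), with medians of -0.30, -0.19 and -0.18. Among them Elongin B (TRINITY_DN34640_c2_g2), an elongation factor subunit, went from 231 ± 22.5 TPM in control to 125 ± 18.5 TPM at day 5 (log2 fold change -0.89, SE 0.18, adjusted p = 0.0148; limma). The polymerase II subunit RPB3 (TRINITY_DN32429_c3_g1) went from 33.1 ± 4.24 TPM in control to 17.9 ± 0.541 TPM (log2 fold change -0.84, SE 0.17, adjusted p = 0.0167; limma). The 6 that fell also included the RNA polymerase III subunits RPC8 and RPC2 and an RPB2 transcript (TRINITY_DN37764_c4_g2). Another was a TFIID subunit by its Swiss-Prot hit (TRINITY_DN34254_c1_g7), whose annotation hit is a heat shock 70 kDa protein 12A. The 1 that rose at day 3 was a different RPB2 transcript (TRINITY_DN42524_c0_g1), with a hypothetical protein of Ramazzottius varieornatus as best hit. Of 11 co-regulators 0 were called at any of the 3 times against control (limma). A loose list of 45 other genes named for sequence-specific factors, which also holds proteins that only bind such factors, had 1 rise and 1 fall at day 3 and 0 calls at days 1 and 5. The rise was a heat shock factor transcript (TRINITY_DN42413_c0_g1), of the factors that switch on chaperone genes. Its best hit is a protein of Polypedilum vanderplanki and its Swiss-Prot hit a plant protein, so neither is a flatworm protein. It was under 1 TPM in every control library. The level went from 0.497 ± 0.317 TPM in control to 2.64 ± 1.01 TPM at day 3 (log2 fold change 1.26, SE 0.30, adjusted p = 0.0462, limma). Outside the text rule, 50 tested genes carried a DNA-binding domain in their Pfam entry; 2 of them, both high mobility group proteins of chromatin, fell at day 5, as TRINITY_DN34596_c1_g2 from 45.9 ± 11.6 TPM in control to 19.4 ± 1.38 TPM (log2 fold change -1.17, SE 0.25, adjusted p = 0.0200; limma). None of 29 neuron and 16 muscle markers was called at any of the 3 times against control (limma), and their summed levels overlapped between groups, at 354 to 424 TPM in control and 403 to 447 TPM at day 5 for neuron markers and 327 to 613 and 248 to 384 TPM for muscle markers. The list medians at days 1, 3 and 5 were -0.14, 0.04 and -0.03 for neuron markers and -0.45, -0.33 and -0.28 for muscle markers, of which 16, 14 and 14 of 16 had estimates below 0.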

How the data were processed

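Polyadenylated RNA was sequenced from whole worms in 12 libraries, 3 in each of 4 groups taken from the labels. The tools cutadapt, FastQC, Salmon and edgeR are listed per the submitters' processing notes (versions, settings and assembler not given in the sources used here). Values as deposited are read as TPM: the header names no unit, Salmon reports TPM, and libraries sum to 978610 to 986584. TPM keeps no sequencing depth, so depth is unknown and no counting interval is given.

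A gene was tested where 3 or more libraries held 1 TPM or more (27329 genes). On log2(TPM + 1), a single limma model (limma 3.58.1, R 4.3.3, trend on mean level) covered the 4 groups. The Benjamini-Hochberg method adjusted p over every tested gene, and 0.05 was the threshold; 6 comparisons of groups and an F test were made. The procedure was run on simulated data with noise independent between genes and changes added only to genes above a minimum level. That simulation did not cover changes in low genes or shifts shared by the genes of a library.

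The genes and lists were chosen with earlier results of these data known. The text names, by rule, called genes, the most abundant gene of each family, the 5 largest rises and 5 largest falls at each time among genes with a mean of at least 5 TPM, factors known from planarian work, and those next to the limit on level. Short names given with a hyphen and the word like denote best hits, not orthology. Classes and the split into factors and other proteins were read from the names after the data were seen.

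Alternatives were quantile normalization, rescaling without the 2 most abundant transcripts, median-ratio scaling, no low-value filter, a filter of 5 TPM, no trend, a pseudocount of 0.1, a replicate block, only the 6 libraries compared, and leaving out libraries. Dropping the 2 species-name matches was added after seeing the data. The table holds 0 unused per-sample columns. No sequences were used. The values of 1 factor are not reported here by name; it stays in all counts.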

Additional observations from a re-analysis of the deposited data

How the results depend on the processing

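As deposited, 1 of the 112 genes was called at day 5 and 1 in the F test, both times the ribosomal S15a transcript TRINITY_DN16802_c0_g1, and 0 in the other comparisons. With quantile normalization 2 were called at day 3, 6 at day 5, 2 for day 5 against day 1 and 4 in the F test. With median-ratio scaling 6 were called at day 5 and 2 in the F test. Over the 27329 tested genes, quantile normalization called 869 at day 3, 1425 at day 5 and 187 for day 5 against day 1. Median-ratio scaling called 1229 of them at day 5. The F test calls over all tested genes were not counted under either scaling. Among the 112 genes the F test count was 0 after rescaling without the 2 most abundant transcripts, with a filter of 5 TPM, without an intensity trend and with a pseudocount of 0.1. The filter of 5 TPM gave 2 at day 5, TCF15 being added (adjusted p = 0.0409, limma), where 874 were called over all genes it kept. Counting only genes matched by a protein name gave 0 at day 5 and 0 in the F test. Without both control replicate 1 and day 3 replicate 2, 1 was called at day 3. When 1 library at a time was left out, the count ran from 0 to 1 at day 3 (1 without day 3 replicate 2), from 0 to 1 at day 5 (0 without control replicate 1) and from 0 to 1 in the F test. The cause of these shifts was not tested, apart from the filters and the narrower membership, which change which genes are counted.

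The labels do not say whether libraries with the same replicate number were paired. Among 18 pairs of libraries with the same number, 1 correlated above 0.1 in its deviations from the group means. Over these pairs r ran from -0.148 to 0.150. Deviations from means of 3 libraries cannot decide whether the libraries were paired. With the replicate number as a block, 2 of the 112 genes were called at day 5, TCF15 being added (adjusted p = 0.0475, limma), and 0 in the F test. Over the 27329 tested genes the block called 780 at day 5.

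For the 64 named genes and 3 times there were 192 log2 fold changes and 4110 values under 22 alternatives. Of these values 3833 kept direction and side of the threshold, 262 changed sign without being called, 14 were newly called, 1 lost its call and 0 of the called values reversed. Unknown depth, low levels and 3 libraries per group limited what was detectable.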
